A study of Mus musculus with 8 samples.

Results

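Mouse oocytes that had received extra wild-type BTG4 were compared with uninjected oocytes of the same stage, metaphase of the second meiotic division (MII). The comparison rests on 4 of the 8 libraries of the series, namely 2 of uninjected MII oocytes and 2 of MII oocytes with the treatment Btg4wt, chosen by their labels alone. All oocytes came from ICR (Crl:CD1) female mice, and each library held 15 oocytes whose zona pellucida had been removed. The uninjected MII oocytes were matured in culture. For Btg4wt, fully grown oocytes were microinjected with capped RNA and then matured. The RNA had been transcribed in vitro from a *Btg4* coding sequence in an expression vector with Myc tags. The other 4 libraries, from uninjected oocytes at the germinal vesicle stage (GV) and from MII oocytes injected with RNA of a mutant BTG4 (Btg4tm), serve below as a scale only. The series has no mock-injected group, so the injection, the RNA that entered with it, the Myc tags and the extra BTG4 cannot be told apart. The uninjected and the injected libraries were also deposited as separate sets of tables, and a difference between these sets cannot be told apart from injection.

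BTG4 is an adaptor protein of maturing oocytes. It binds the deadenylases CNOT7 and CNOT8 of the CCR4-NOT complex and brings them to maternal mRNAs, whose poly(A) tails are then shortened before the mRNAs decay. This clearance accompanies the passage from the GV to the MII stage, and oocytes of mice without *Btg4* retain much maternal mRNA.

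The primers with which the wild-type coding sequence was cloned show what the injected RNA has in common with the oocyte's own transcript. They are given 5′ to 3′, with capitals for the bases that match the *Btg4* transcript ENSMUST00000114431.3 and lower case for added bases.

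forward: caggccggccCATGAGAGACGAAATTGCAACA

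reverse: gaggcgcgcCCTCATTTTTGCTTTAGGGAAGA

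On GRCm38 the matching part of the forward primer lies on chromosome 9 from 51116531 to 51116552, in exon 2 of 5 of that transcript, and holds the start codon. That of the reverse primer lies from 51119334 to 51119356, in exon 5 of 5, and holds the stop codon. The injected RNA thus carries the whole open reading frame of 250 codons, 753 bases with the stop codon, without the UTRs of the endogenous mRNA. Sequence from the vector, such as the Myc tags, is not shown by the primers. Reads from it count as *Btg4* in a table with a single value per gene, so injected and endogenous *Btg4* RNA cannot be told apart here. The sources used here describe capping of the RNA but no step that adds a poly(A) tail, and the libraries were primed with oligo(dT).

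RNA levels are given as deposited TPM (a share of the library corrected for gene length) after scaling between libraries. *Btg4* (chromosome 9, 51060901 to 51119875, plus strand) stood at 5792 and 6002 scaled TPM in the MII libraries and at 5178 and 5510 in the Btg4wt libraries. Both injected libraries were slightly below both uninjected ones. The log2 difference, Btg4wt minus MII, was -0.14 with a 95% interval from -0.37 to 0.09, and limma gave an adjusted p of 0.625. Measured *Btg4* RNA was thus not higher in the injected libraries. BTG4 protein was not analysed here. The paper reports immunoblots in which the injected BTG4 was overexpressed in oocytes. Its authors also write that exogenous BTG4 seemed to lower the endogenous protein, a point they leave to be clarified.

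The labelled cell type was checked against markers. The oocyte genes *Dppa3*, *Gdf9*, *Bmp15* and *Oosp1* were at 3034 TPM or more in each of the 4 libraries, and *Dazl*, *Ddx4*, *Nlrp5*, *Ooep* and *Zp1* to *Zp3* were all detected. *H1foo*, also among the oocyte markers chosen, was not listed under that name in both sets of tables. Of 25 cumulus and granulosa cell genes, 9 were listed in both sets of tables and 6 passed the filter. Their summed level was 48.3 and 52.0 scaled TPM in MII and 49.2 and 50.04 in Btg4wt libraries, of which *Cyp19a1* made 20.5 to 26.8. The single genes differed more than the sum, with log2 differences from -0.48 (*Star*) to 0.99 (*Inha*), 4 positive and 2 negative. Of the 6, 3 had an interval within 2-fold, and 1, on the higher side, had an unadjusted p under 0.05 in limma. *Fshr*, *Foxl2* and *Amh*, which define granulosa cells, were not among those tested. Depth was estimated at 1.98e+07 and 1.88e+07 reads in the MII libraries and at 2.13e+07 and 2.41e+07 in the Btg4wt libraries.

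The transcriptomes of the 2 groups lay close to each other. Over 13968 genes, the median absolute log2 difference between an MII and a Btg4wt library was 0.234 to 0.244 in the 4 pairs. Replicate libraries of 1 group differed by 0.183 to 0.226 over the 4 groups. The value was 0.183 for the MII and 0.198 for the Btg4wt replicates, and the largest, 0.226, was that of Btg4tm. All pairs of an MII and a Btg4wt library thus differed more than the replicates of either group. The smallest of these differences exceeded the Btg4tm value by little. Between GV and MII libraries the same measure was 0.776 to 0.827, and between Btg4wt and Btg4tm libraries it was 0.597 to 0.626. A change of over 2-fold separated 3.44% to 4.15% of the genes in a pair of MII and Btg4wt libraries, against 2.02% to 3.65% between replicates and 37.4% to 40.0% between GV and MII libraries. The pairs are a description, since each library enters several of them.

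**Figure D1:**
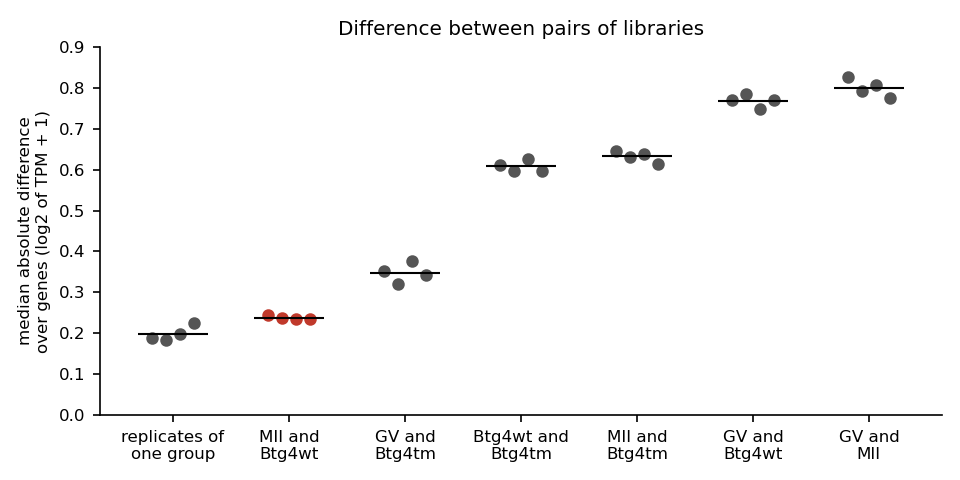
Median absolute difference over 13968 genes (log2 of scaled TPM + 1, vertical axis) for each pair of libraries, grouped by kind (horizontal axis). A point is 1 pair and a line the mean of its kind. The pairs of MII with Btg4wt (red, 0.234 to 0.244) sit above the replicates of all groups (0.183 to 0.226, the largest from Btg4tm). They sit far below GV with MII (0.776 to 0.827).

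No gene passed the test. With limma on log2(TPM + 1), 0 of 13968 genes (0%) had an adjusted p under 0.05, whatever the fold change, and the lowest adjusted p was 0.0856. The same fit called 5103 genes (36.5%) between MII and GV oocytes and 3643 (26.1%) between Btg4tm and Btg4wt oocytes. An unadjusted p under 0.05 was reached by 1655 genes (11.8%), of which 945 were higher (6.77% of all tested) and 710 lower (5.08%) in Btg4wt. If no gene differed, a share near 0.05 would be reached. The share was 9.24% under 10 TPM and 18.3% at 1000 TPM or more. That no single gene passed thus does not show that no gene differed. Read counts recovered from the TPM and fitted with voom, an alternative added after the data were seen, gave 13 higher (0.0953%) and 12 lower genes (0.0879%) of 13645, or 0.183% in all, and 84 genes (0.616%) at any fold. Scaling to the mitochondrially encoded RNAs gave 69 higher and 0 lower genes, a setting under which the median of all genes moved from 0.02 to 0.39. The limma p-values draw on the spread between replicates in all 4 groups, so they depend partly on the GV and Btg4tm libraries. With 2 libraries a group, they measure only the spread between libraries of this series. An exact two-sided permutation test of a single gene could not go below 0.333.

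On the log2(TPM + 1) scale the data bounded the size of the difference for most genes. The 95% interval lay within a 2-fold change in either direction for 11060 genes (79.2%). This share depended on the scale, since the pseudocount of 1 holds low genes near 0. It was 58.85% with a pseudocount of 0.1 and 60.46% with voom on recovered reads. The median log2 difference was 0.02, with quartiles of -0.16 and 0.21, and the central 95% of genes ran from -0.69 to 0.71. At the median gene the interval reached 0.48 to either side of the difference.

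This bound depended on level. Among the 7671 genes under 10 TPM, with a median of 52 reads a library, 68.2% had an interval within 2-fold. The share was 91.2% of the 4877 genes at 10 to 100 TPM, 97.7% of the 1289 at 100 to 1000 TPM and 93.9% of the 131 at 1000 TPM or more. By type, it was 86.3% of protein-coding genes, 56.8% of long non-coding genes and 42.8% of pseudogenes. For the remaining 2908 genes the interval was not contained within 2-fold. It lay wholly beyond 2-fold for 6 of them, *Plcl1*, *Gm48290*, *E330020D12Rik*, *Gm34066*, *Olfr373* and *Gm42468*, which are named for that reason and did not pass the adjusted test. For the other 2902 both smaller and larger differences than 2-fold were inside the interval.

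A difference over 2-fold was measured for 188 genes (1.35%), with 97 (0.694%) higher and 91 (0.651%) lower in Btg4wt. Of these, 141 had a mean under 10 TPM, and 66 were protein-coding. Every Btg4wt library was at least 2-fold above every MII library for 18 genes (0.129%) and at least 2-fold below for 12 (0.0859%).

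**Figure D2:**
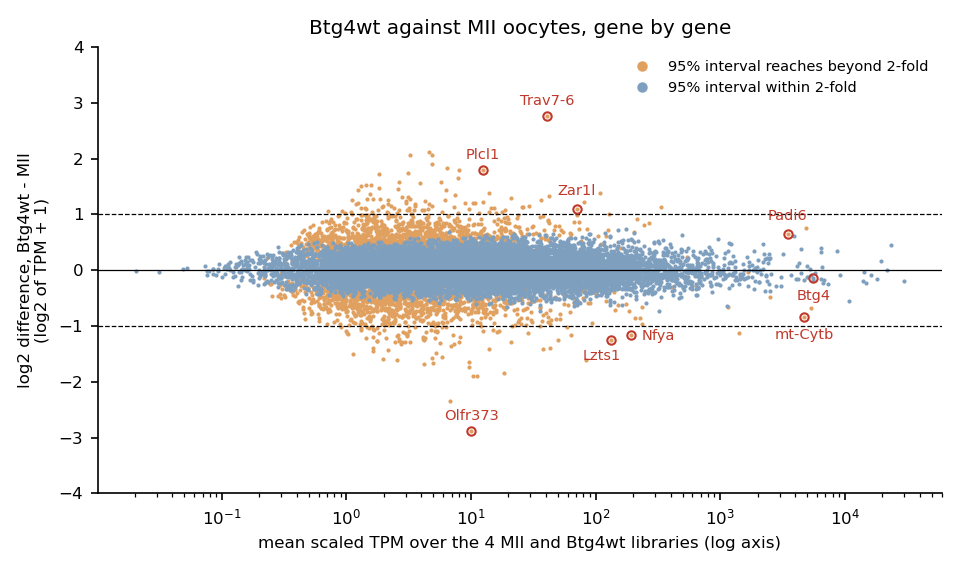
Log2 difference, Btg4wt minus MII (vertical axis, log2 of scaled TPM + 1), against the mean level over the 4 libraries (horizontal axis, log scale), 1 point per gene for 13968 genes. Blue points have a 95% interval within 2-fold and orange points do not. Red circles are genes named in the text and dashed lines mark 2-fold. Above 10 TPM the cloud narrows with level, and the pseudocount of 1 holds the lowest genes near 0.

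The genes named next were chosen at 10 TPM or more, with no overlap between groups and an unadjusted p under 0.05 in limma. Of these, the 12 largest differences in each direction were taken, and none passed the adjusted test. No overlap was thus fixed by the choice, and over all genes it held for 24.1% higher and 20.8% lower. Genes with overlap were left out, such as *Gm28960* with a log2 difference of -1.16. It stood at 6.07 and 213 in MII and at 26.6 and 9.98 in Btg4wt. The chosen genes were a mixed group. On the higher side, *Plcl1*, which encodes a catalytically inactive relative of phospholipase C (chromosome 1, 55405921 to 55754285), was at 5.91 and 4.20 scaled TPM in MII and at 20.5 and 19.0 in Btg4wt. The groups did not overlap. Its log2 difference was 1.79 with a standard error of 0.31 and an adjusted p of 0.135, and voom on recovered reads gave an adjusted p of 0.00325. GV oocytes had a mean of 2.55 and Btg4tm oocytes one of 3.67, so *Plcl1* was highest in Btg4wt.

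The cytokine gene *Il17f* (chromosome 1, 20777146 to 20790617) stood at 65.0 and 54.8 in MII and at 145 and 171 in Btg4wt, a log2 difference of 1.38 (adjusted p = 0.194). *Plekhb1*, a gene for a pleckstrin homology domain protein, stood at 5.91 and 6.22 against 17.5 and 13.4 (log2 difference 1.21, adjusted p = 0.120). *Mef2b*, a transcription factor gene, stood at 58.0 and 38.9 against 96.3 and 129 (log2 difference 1.21, adjusted p = 0.236). In each of these, as the choice required, the lowest Btg4wt library was above the highest MII library. *Egr1*, an immediate early transcription factor, was at 18.9 and 15.2 in MII and at 27.3 and 54.4 in Btg4wt, a log2 difference of 1.14 (adjusted p = 0.304). That of *Egr1* rested on Btg4wt replicate 2, without which it was 0.66. The largest value, 2.76 for the T cell receptor segment *Trav7-6* (adjusted p = 0.328), came from 20.1 and 4.12 TPM in MII and 73.1 and 66.1 in Btg4wt, and was 1.74 without MII replicate 2. The other 6 on this side were *Gm48290*, *Gm47751*, *Hist1h2al*, *Gm6166*, *Gm48168* and *Tmem41b-ps*, non-coding genes or genes with pseudogene names or annotations, with log2 differences from 1.14 to 1.39. That of *Gm48168* was 0.62 without Btg4wt replicate 1 and 0.76 without MII replicate 1. Reads of pseudogenes can be shared with their parent genes, so these values are uncertain.

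On the lower side, *Nfya*, a subunit of the CCAAT-binding factor NF-Y (chromosome 17, 48386885 to 48409906), was at 264 and 267 scaled TPM in MII and at 122 and 115 in Btg4wt. Replicates were close to each other in both groups, and the groups stood apart, as the choice required. The log2 difference was -1.16 with a standard error of 0.19 and an adjusted p of 0.120 from limma, and voom gave one of 0.00252. In GV oocytes the mean was 71.0 and in Btg4tm oocytes 48.4. *Lzts1*, a leucine zipper gene (chromosome 8, 69132669 to 69184225), had 191 and 183 in MII and 93.8 and 64.4 in Btg4wt, a log2 difference of -1.26 (adjusted p = 0.120, and 0.00252 from voom). *Nfya* and *Lzts1* had the highest levels of the 24 genes chosen by size apart from *mt-Tq*, the mitochondrial glutamine tRNA, which stood at 2207 and 1664 against 984 and 781 (log2 difference -1.13).

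*Slc14a1*, a urea transporter gene, had 31.8 and 26.5 in MII against 4.72 and 11.2 in Btg4wt (log2 difference -1.84, adjusted p = 0.199). *Prr32* had 70.3 and 69.3 against 20.98 and 39.2 (log2 difference -1.25, adjusted p = 0.165), and its difference was -0.81 without Btg4wt replicate 1. *Olfr373*, an olfactory receptor gene, had the lowest value of the 24 genes, -2.88 (adjusted p = 0.194). It stood at 27.5 and 9.44 in MII and at 2.60 and 0.528 in Btg4wt. Its levels spread widely within each group, and the MII libraries stood above the GV and Btg4tm means of 4.03 and 3.84. Another 5, *Gm12751*, *Gm50302*, *Gm38224*, *Gm26737* and *Gm23320*, had log2 differences from -1.42 to -1.11 and are predicted or non-coding genes. That of *Gm50302* was -0.74 without Btg4wt replicate 2. Of the 24 genes, 11 were among the 25 that voom called.

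**Figure D3:**
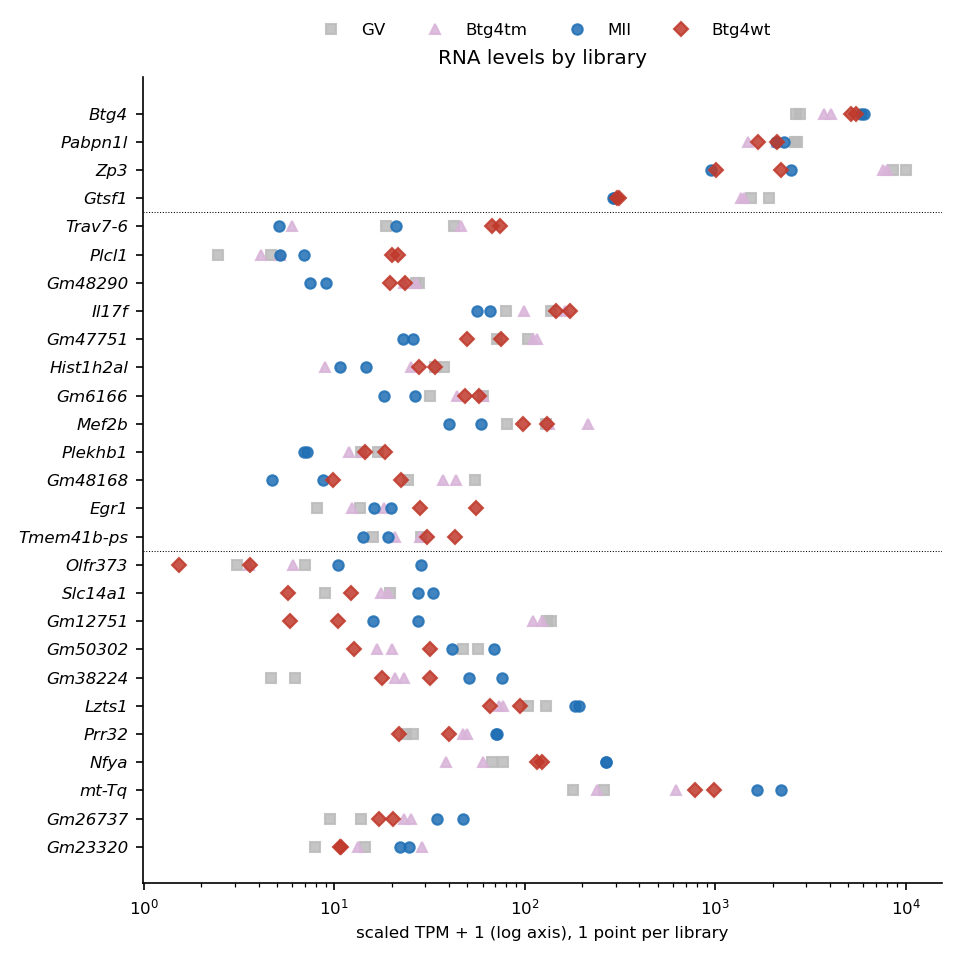
Scaled TPM + 1 (horizontal axis, log scale) by gene (vertical axis, sets separated by dotted lines), 1 point per library. Shown first are the 4 genes discussed with BTG4. The others were chosen for non-overlap and size, 12 with positive and 11 of the 12 with negative differences. Blue circles are MII, red diamonds Btg4wt, and pale symbols GV and Btg4tm. *Nfya* shows close replicates in both groups, while *Zp3* spreads as far within the groups as between them.

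Beyond these, 2 genes shared the lowest adjusted p of 0.0856 and were picked out for that. *Zar1l*, whose product is related to the maternal RNA-binding protein ZAR1 (chromosome 5), was at 49.4 and 39.7 in MII and at 100.03 and 92.5 in Btg4wt, a log2 difference of 1.10 with a standard error of 0.12. Its GV mean of 1082 was far above both. *1700116B05Rik* was at 8.72 and 8.35 against 3.01 and 2.69, a log2 difference of -1.31.

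The genes that voom called and that are not described elsewhere held several protein-coding genes, named here for that reason. *Dhdds*, needed for the synthesis of dolichol, was at 12.8 and 10.7 scaled TPM in MII and at 25.5 and 26.2 in Btg4wt (log2 difference 1.08, adjusted p = 0.120 in limma and 0.0177 in voom). *Camsap3*, whose product binds the minus ends of microtubules, was at 14.7 and 16.9 against 29.1 and 43.6. *Cldn34b2*, a claudin family gene, was at 88.4 and 80.8 against 151 and 192. The alanyl-tRNA synthetase gene *Aars* was lower in level, at 4.24 and 3.13 against 8.12 and 7.17. On the other side, the zinc finger gene *Zfp536* was at 7.98 and 6.59 in MII and at 3.44 and 2.37 in Btg4wt, and the receptor phosphatase gene *Ptprd* at 2.29 and 2.84 against 1.01 and 1.39. In each of these genes the groups did not overlap.

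The lists below were read by their counts and medians, beside those of all genes tested. Over all genes, 53.1% had a positive log2 difference, and both Btg4wt libraries stood above both MII libraries for 24.1% and below them for 20.8%. An unadjusted p under 0.05 in limma was reached by 6.77% of all genes on the higher and 5.08% on the lower side. No member of any list passed the limma test, while voom on recovered reads called *Hspb1* and *Zar1l* higher and *mt-Tq* lower, and 1 higher and 3 lower *Gm* genes. All list medians are on the log2(TPM + 1) scale. Under scaling to the mitochondrially encoded RNAs, where the median of all genes was 0.39, each list median was higher and the negative ones turned positive. When 1 library was left out, 6 medians near 0 changed sign, those of the immediate early, deadenylation, egg activation, ribosomal protein, respiratory chain and *Gm* lists.

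Injected RNA can be sensed as foreign by many cells. Of 39 genes of the innate response to foreign RNA, 18 were listed in both sets of tables and 14 were tested. *Ifih1*, *Dhx58*, *Tlr7* and *Zbp1* were among those not tested. The median log2 difference was 0.23, and 0.15 without MII replicate 1, and 12 of the 14 had a positive difference. Both Btg4wt libraries were above both MII libraries for 9 genes (64.3%) and below them for 1, while 1 gene had an unadjusted p under 0.05 in each direction. *Stat2*, which carries interferon signals to the nucleus, was at 1.65 and 1.59 in MII and 3.86 and 3.31 in Btg4wt (log2 difference 0.81, adjusted p = 0.224). *Bst2*, encoding the antiviral protein tetherin, was at 31.6 and 33.2 against 26.2 and 14.4 (log2 difference -0.71, adjusted p = 0.362). The RNA sensor gene *Ddx58* was at 4.20 and 5.41 against 5.98 and 5.61. By far the most abundant members were the oocyte *Oas1* paralogs. *Oas1d* had 4021 and 4084 in MII and 4164 and 4339 in Btg4wt, and the log2 differences of *Oas1d*, *Oas1e* and *Oas1c* were 0.07, 0.23 and 0.25.

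Of 32 genes of the heat shock, unfolded protein and oxidative stress responses, 26 were tested. An unadjusted p under 0.05 was reached by 4 on the higher and 1 on the lower side, and the median was 0.09. The small heat shock protein gene *Hspb1* was at 54.8 and 40.1 in MII and at 80.8 and 109 in Btg4wt (log2 difference 0.98, adjusted p = 0.165). Of the 26, 15 had a positive and 11 a negative log2 difference. The transcription factor gene *Atf4* had one of 0.55, and *Hsp90b1* and *Hspa5*, which encode chaperones of the endoplasmic reticulum, had 0.40 each. On the negative side, *Ddit3*, a target of ATF4, had -0.46, and *Herpud1*, the lowest of the list, had -0.60. *Hsp90aa1*, the most abundant member, was at 2103 and 2189 against 2288 and 2654. The immediate early and p53 list had 19 of 28 genes tested and a median of 0.0045. Beside *Egr1*, the p53 targets *Bax* and *Mdm2* had log2 differences of -0.58 and -0.33, and *Trp53* itself stood at 69.4 and 68.4 against 65.3 and 66.7.

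The machinery with which BTG4 works was at like levels in both groups. Of 37 deadenylation, decapping and uridylation genes, 31 were tested, 29 of them with an interval within 2-fold, and the median was 0.02. The catalytic subunit gene *Cnot7* was at 584 and 573 in MII and at 490 and 535 in Btg4wt (log2 difference -0.17, adjusted p = 0.578). Its paralog *Cnot8* was at 180 and 187 against 140 and 152, a log2 difference of -0.33 (adjusted p = 0.361). The scaffold gene *Cnot1* had a log2 difference of 0.13, the other catalytic subunit gene *Cnot6l* one of -0.20, and the decapping genes *Dcp1a* and *Dcp2* ones of 0.08 and 0.19.

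The genes of poly(A) binding and cytoplasmic polyadenylation leaned to the higher side. Of 27 tested of 30, 15 (55.6%, against 24.1% of all genes) had both Btg4wt libraries above both MII libraries. For 5 (18.5%, against 20.8%) both were below. An unadjusted p under 0.05 in limma was reached by 8 on the higher and 1 on the lower side, where all genes give 6.77% and 5.08%. The median was 0.21, and 0.10 without Btg4wt replicate 1. The adaptor *Pabpn1l*, which links BTG4 to mRNA (chromosome 8, 122619471 to 122622739), was at 2294 and 2072 in MII and at 2115 and 1678 in Btg4wt, an overlap of the groups. *Eif4e1b*, an oocyte form of the cap-binding protein eIF4E, was at 187 and 196 against 347 and 339 (log2 difference 0.84, adjusted p = 0.332). *Cpsf4l*, related to a cleavage and polyadenylation factor subunit, was at 101 and 106 against 154 and 165 (log2 difference 0.62, adjusted p = 0.211). The poly(A) polymerase gene *Papola* was the lower one, at 106 and 98.3 against 81.7 and 77.2 (log2 difference -0.36, adjusted p = 0.281).

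Maternal mRNAs that are stored untranslated in the growing oocyte and recruited during maturation leaned slightly lower. All 24 were tested and all had an interval within 2-fold. Their median was -0.13, and -0.05 without Btg4wt replicate 2. *Mos*, the kinase gene that maintains the MII arrest, was at 2610 and 2604 in MII and at 1881 and 2142 in Btg4wt (log2 difference -0.38, adjusted p = 0.340). *Ccnb1*, encoding cyclin B1, was at 3211 and 3561 against 2885 and 2693 (log2 difference -0.28, adjusted p = 0.403). *Plat*, the gene of tissue plasminogen activator, had a log2 difference of -0.36. Both libraries of one group stood apart from both of the other in each of these genes. This held for 13 members (54.2%) on the lower and 6 (25%) on the higher side, against 20.8% and 24.1% of all genes.

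The 45 tested genes of the meiotic cell cycle and spindle all had intervals within 2-fold and a median of -0.04. *Pttg1*, the securin gene, stood at 15572 and 14688 in MII and at 13907 and 12438 in Btg4wt. Both Btg4wt libraries were below both MII libraries for 20 of them (44.4%) and above for 10. Of these genes 2 in each direction had an unadjusted p under 0.05, with *Incenp* (0.41) and *Tacc3* (0.26) on the higher side and *Mos* and *Ccnb1*, given above, on the lower. Of 19 tested egg activation and calcium genes, the cortical protease gene *Astl* was at 597 and 540 against 424 and 386 (log2 difference -0.49, adjusted p = 0.420), and the list median was 0.07.

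Zona pellucida and oocyte growth mRNAs, many of which decline during maturation, had a list median of 0.24, next to the 0.23 of the innate response genes. Of 29 genes 25 were tested, 21 with a positive log2 difference. An unadjusted p under 0.05 in limma was reached by 7 on the higher side and 0 on the lower, where all genes give 6.77% and 5.08%. *Padi6*, needed for the cytoplasmic lattices of the oocyte, was at 2552 and 2889 in MII and at 4180 and 4375 in Btg4wt (log2 difference 0.66, adjusted p = 0.211). *Bmp15*, the gene of an oocyte growth factor, was at 3222 and 3034 against 4481 and 5052 (log2 difference 0.61, adjusted p = 0.233). The transcription factor genes *Lhx8* and *Nobox* had log2 differences of 0.48 and 0.36. *Gtsf1* was at 289 and 292 against 304 and 310 (log2 difference 0.08), and *Zbed3*, the most abundant member, had one of -0.0045. The median was 0.11 without Btg4wt replicate 1, 0.14 without MII replicate 1 and 0.34 without Btg4wt replicate 2. The germ cell RNA helicase gene *Ddx4*, an oocyte marker outside this list, was at 154 and 143 in MII and 237 and 330 in Btg4wt (log2 difference 0.91, adjusted p = 0.165).

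The zona pellucida genes themselves varied within the groups. *Zp3* (chromosome 5, 135980099 to 135988624), the gene of the sperm-binding zona glycoprotein, was at 943 and 2503 scaled TPM in the MII libraries and at 2221 and 1007 in the Btg4wt libraries. *Zp2* was at 298 and 701 against 790 and 371. *Zp1* was at 563 and 998 against 1073 and 702. In all of them MII replicate 2 and Btg4wt replicate 1 were the high libraries. The log2 difference of *Zp3* was -0.04 with a 95% interval from -1.09 to 1.02, and it was -0.74 without MII replicate 1 and 0.66 without MII replicate 2.

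The same order of libraries recurred in other genes, which were picked out after their values were seen. The 46 genes counted next include *Zp1*, *Zp2* and *Zp3* themselves. Of 6297 genes at 10 TPM or more, 46 were at least 1.5-fold higher (TPM + 1) in MII replicate 2 than in MII replicate 1 and in Btg4wt replicate 1 than in Btg4wt replicate 2. The opposite crossing held for 11 genes, and replicates with the same number were both higher in 10 genes (replicate 2) and 9 genes (replicate 1). Of the 46, 38 (82.6%) were higher in both GV libraries than in all 4 libraries compared, against 1749 of the 6297 (27.8%). Examples were *Dppa5a*, at 277 and 433 in MII, 475 and 230 in Btg4wt and 2836 and 2474 in GV, *Tmsb10* at 60.2 and 111 against 140 and 74.5, and *Cd9* at 30.7 and 52.1 against 68.3 and 37.2. The crossed order was fixed by this choice, which also favours overlap of the groups, so neither is a result. The values of the groups overlapped in 42 of the 46 genes. The exceptions were *Gm10076*, *Gm12751*, *Gm48168* and *Gm50302*.

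**Figure D4:**
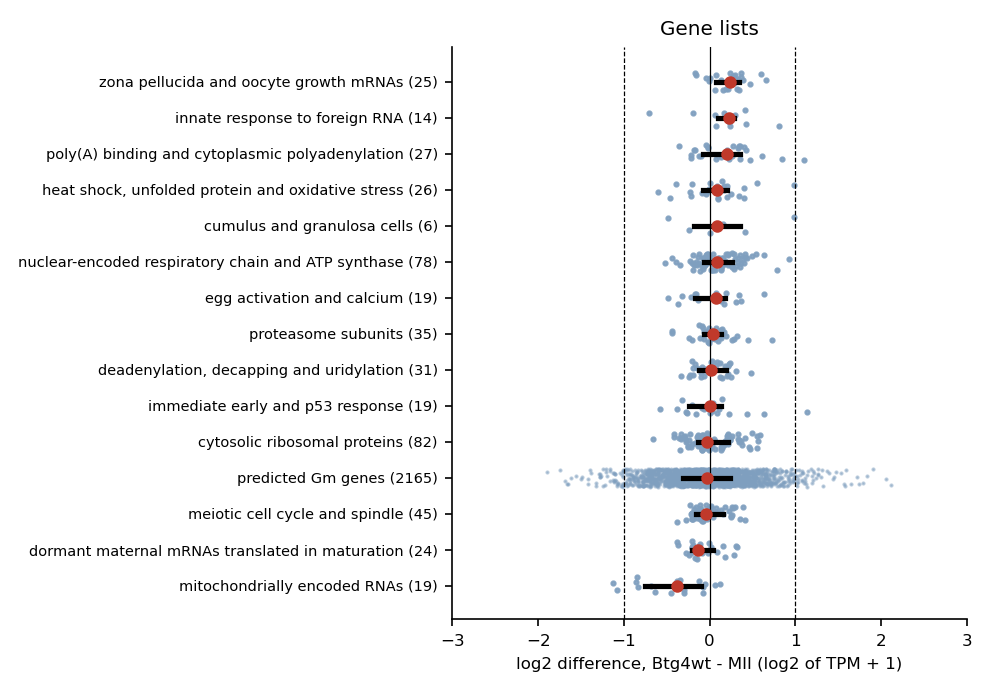
Log2 difference, Btg4wt minus MII (horizontal axis, log2 of scaled TPM + 1), of the tested members of 15 gene lists (vertical axis, number tested in brackets). Blue points are genes, red points list medians and black bars the quartiles. The medians run from -0.38 for the mitochondrially encoded RNAs to 0.24 for the zona pellucida and oocyte growth mRNAs, and dashed lines mark 2-fold.

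Large housekeeping sets showed small medians. The 82 tested cytosolic ribosomal protein genes had a median of -0.03, with 5 higher and 3 lower at an unadjusted p under 0.05, and a summed level of 4316 and 4378 TPM in MII and 4194 and 4162 in Btg4wt. In GV oocytes the sums were 14297 and 15156. The 78 nuclear-encoded genes of the respiratory chain and ATP synthase had a median of 0.08 with 8 higher and 2 lower, and the 35 proteasome genes one of 0.04 with 3 higher and 2 lower. Predicted *Gm* genes, 2165 in all, had a median of -0.03, with 117 higher and 181 lower, and 49.9% had an interval within 2-fold.

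The mitochondrially encoded RNAs stood lower in Btg4wt. Of 19 tested, 17 had a negative log2 difference, 13 had both Btg4wt libraries below both MII libraries and 0 above, and 9 reached an unadjusted p under 0.05 on the lower side, where all genes give 5.08%. The median was -0.38. Their summed level was 27738 and 26793 scaled TPM in MII and 20651 and 18078 in Btg4wt, without overlap. The cytochrome b mRNA *mt-Cytb* was at 5987 and 6142 against 3858 and 3002 (log2 difference -0.83, adjusted p = 0.120). *mt-Nd1* and *mt-Nd2*, mRNAs of complex I subunits, had log2 differences of -0.68 and -0.63 (adjusted p = 0.280 and 0.194), and that of *mt-Nd1* was -0.44 without Btg4wt replicate 2. The RNAs did not move by 1 factor. The ribosomal RNA *mt-Rnr2* was at 5920 and 5073 against 4947 and 5438, and *mt-Rnr1* at 1396 and 1175 against 1271 and 1402, so both overlapped between the groups. The nuclear-encoded partners of the same complexes gave the median of 0.08 named above. Under scaling to their own sum the median of the 19 was 0.11 by construction. Nuclear copies of the mitochondrial genome can take reads from these genes.

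**Figure D5:**
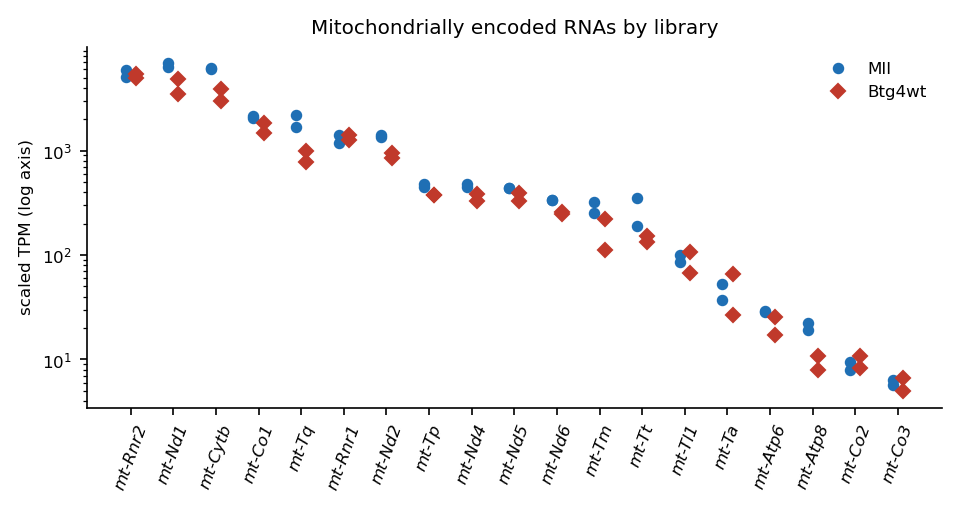
Scaled TPM (vertical axis, log scale) of the 19 mitochondrially encoded RNAs tested (horizontal axis, ordered by mean level), 1 point per library, with blue circles for MII and red diamonds for Btg4wt. Both Btg4wt libraries lie below both MII libraries in 13 of the 19, while *mt-Rnr1* and *mt-Rnr2* overlap.

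Among the 131 genes at 1000 TPM or more, which dominate the oocyte mRNA pool, 24 had an unadjusted p under 0.05 (18.3%) and 1, *mt-Tq*, differed by over 2-fold. Besides the mitochondrial RNAs, *Padi6* and *Bmp15*, the largest differences were those of *Skp1a*, *Gm4350*, *Oog3* and *Fbxw26*. *Skp1a*, encoding the adaptor of SCF ubiquitin ligases, was at 3485 and 3638 in MII and at 4641 and 7823 in Btg4wt (log2 difference 0.76, adjusted p = 0.384), with Btg4wt replicate 2 well above the rest. *Oog3*, an oocyte-specific gene, was at 11636 and 14306 against 8653 and 8985 (log2 difference -0.55, adjusted p = 0.301).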

How the data were processed

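Polyadenylated RNA of 15 oocytes a library was amplified by Smart-seq2, 2 libraries in each of 4 groups. The labels state 3 samples a group, and 2 were analysed here. Per the labels the authors used Trim Galore 0.6.10, HISAT2 2.2.0 on GRCm38 and featureCounts 2.0.6, counting exons without strand and leaving out reads with mapping quality below 10, and the deposited values are TPM. As shares of a library, TPM of all genes shift when abundant RNAs shift.

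The 15962 genes listed in both sets of tables were scaled by the median of ratios. Those that reached 1 TPM in 2 or more libraries, 13968 in all, were fitted as log2(TPM + 1) with limma 3.58.1 in R 4.3.3 (1 coefficient per group over all 8 libraries, eBayes with trend, Benjamini-Hochberg adjustment), after tests on simulated data. Differences on this scale understate the change of low genes. A call needed an adjusted p under 0.05 and an absolute log2 difference over 1. The authors' DESeq2 needs read counts and was not run. Counts were recovered for depth and for voom: TPM times exon length fell within 0.1 of a whole read for 98.4% to 98.8% of low values, where chance gives 20%.

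Named were *Btg4*, *Pabpn1l*, *Zp3* and *Gtsf1*, up to 12 called genes per direction at 10 TPM or more, filled with the largest non-overlapping differences at an unadjusted p under 0.05, and leading members of 15 lists. Some of these genes are not reported here. Genes and lists were chosen with earlier results of these data known. Positions are from GENCODE M21 on GRCm38, matched by symbol for 15586 of 15962 genes. The alternatives were 12 other settings, leaving out each library, and voom.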

Additional observations from a re-analysis of the deposited data

Results flagged for a closer look

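The injection tables list 7 mitochondrial tRNA genes that the control tables do not, while no mitochondrial gene is listed in the control tables only and 19 are in both. For 5 of the 7 both Btg4wt libraries were at 10 TPM or more. The lower of the 2 Btg4wt libraries had 50.5 TPM of *mt-Tn*, 21.7 of *mt-Tc*, 19.9 of *mt-Ti*, 12.5 of *mt-Tw* and 12.2 of *mt-Ts2*, as deposited. They stand out because they lie outside the comparison, with no value for uninjected oocytes. These genes are short, and the values rest on few reads, such as 32 and 30 of *mt-Tn* in the Btg4wt libraries. The 2 Btg4tm libraries had 34.2 and 66.7 TPM of *mt-Tn*.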

How the results depend on the processing

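Counts and medians were computed 338 times under other settings, of which 307 stayed in place and 31 moved. A count or share above 0 was taken to stay in place up to a change of 1.5 times. The share of intervals within 2-fold thus counted as in place at 58.85% (pseudocount of 0.1) and 60.46% (voom). The count of called genes was 0 under all planned settings except scaling to the mitochondrially encoded RNAs (69) and the replicate block (1, *Olfr373*, adjusted p = 0.0457 from limma), and 25 with voom on recovered reads, added after the data were seen. Of the 69 and the 25, 10 were shared. The replicate numbers did not pair the samples (correlation of deviations between MII and Btg4wt -0.054), so the block result adds no paired evidence.

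Scaling to the mitochondrially encoded RNAs moved the median of all genes to 0.39. It gave a median absolute difference of 0.419, 52.7% of intervals within 2-fold, and 11410 and 6158 calls in MII against GV and in Btg4tm against Btg4wt. List medians became 0.57 (foreign RNA), 0.49 (stress), 0.29 (immediate early), 0.46 (deadenylation), 0.65 (poly(A) binding), 0.34 (dormant), 0.74 (zona and growth), 0.44 (meiotic), 0.40 (egg activation), 0.41 (cumulus), 0.40 (ribosomal), 0.50 (respiratory chain), 0.52 (proteasome), 0.11 (mitochondrially encoded) and 0.28 (*Gm*). The log2 differences of *Mdm2* (0.16), *Ccnb1* (0.22), *Astl* (0.0073), *Mos* (0.12) and *Plat* (0.13) turned positive. Without a minimum fold the other contrasts gave 8743 and 6917 calls. The median absolute difference was 0.290 with a pseudocount of 0.1 and 0.293 with voom. Leaving out 1 library moved the medians of zona and growth mRNAs (0.11 to 0.34), poly(A) binding genes (0.10 to 0.22) and dormant mRNAs (-0.15 to -0.052).

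Of 1572 values of single genes, 42 passed the test only under an alternative. With 2 libraries a group and 15 oocytes each, low genes have wide intervals, and depth adds to this under 10 TPM.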

Other observations

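Of the genes listed in one set of tables only, 1422 were in the control tables and 486 in the injection tables. Most were low, with a median of 0.244 TPM in MII and 0.245 in Btg4wt. In the control tables the highest by mean were *Fam25c*, *Gm7550*, *Gm47926*, *Gm48721* and *Gm11954*, which were at GV levels of 16.5 to 59.4 TPM and at 2.70 or less in MII. *Gm3788* and *Gm7825*, among the highest in the injection tables, were at 2.02 and 5.27 and at 4.29 and 1.15 TPM in Btg4wt, and both Btg4tm libraries were above 43 TPM for each.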
